A study of Homo sapiens with 6 samples.

Results

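The genes described here handle iron in WM266.4 cells, an established human melanoma cell line, and were measured by RNA-seq after RIPK4 silencing. RIPK4 is a receptor-interacting serine/threonine kinase. There were 10 genes among the 24526 with counts, taken by symbol. TFRC, STEAP3 and SLC11A2 serve iron uptake, FTH1, FTL and NCOA4 its storage and release, SLC40A1 its export, and ACO1 and IREB2 its regulation. MELTF encodes a relative of transferrin. TFRC was picked out because its level was higher in the silenced libraries, so its difference between the groups is given as a description without a test, while the other 9 genes were chosen by function, with earlier results of these data known. The study compared 3 libraries of cells transfected with a RIPK4-specific siRNA (RIPK4.si) with 3 libraries of cells transfected with a negative control siRNA (neg.si), all harvested 48 h after transfection. Silencing rested on a single siRNA product in a single cell line, and both groups carried the transfection.

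Most cells take up iron mainly as ferric transferrin, which binds the transferrin receptor encoded by TFRC and is carried into acid endosomes, where the iron is released, reduced and moved into the cytosol. Iron that is not used is stored in ferritin, a shell of heavy and light chains, and is returned to the cytosol when NCOA4 delivers ferritin to lysosomes. The iron regulatory proteins IRP1 (encoded by ACO1) and IRP2 (encoded by IREB2) bind a short hairpin, the iron-responsive element, when iron is scarce. Bound in the 3' UTR of the TFRC transcript, they stabilise it, and bound in the 5' UTR of the ferritin transcripts, they block translation. Proliferating tumour cells, melanoma included, usually carry abundant transferrin receptor.

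Copies of the hairpin are shown first, because it is the element through which the regulators act on TFRC, ferritin and ferroportin transcripts. The annotated UTRs of GENCODE release 44 were searched on the transcript strand for C, 5 bases, the loop CAGTGN and 5 bases, with the 5 bases on either side of the loop able to pair at all 5 positions (G with T allowed). The search found 7 elements in 4 of the 10 genes. They are printed 5' to 3' with 6 bases of flank on either side, on GRCh38, all but that of FTL on the minus strand. Capitals mark the bulged C and the loop.
TFRC 3' UTR, chr3:196050979-196051007: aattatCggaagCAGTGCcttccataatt
TFRC 3' UTR, chr3:196050575-196050603: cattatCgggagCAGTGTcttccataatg
TFRC 3' UTR, chr3:196050510-196050538: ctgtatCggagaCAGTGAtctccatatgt
TFRC 3' UTR, chr3:196050463-196050491: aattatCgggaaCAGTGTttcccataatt
FTH1 5' UTR, chr11:61967574-61967602: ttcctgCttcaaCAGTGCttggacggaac
FTL 5' UTR, chr19:48965335-48965363: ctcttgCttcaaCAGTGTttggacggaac
SLC40A1 5' UTR, chr2:189580661-189580689: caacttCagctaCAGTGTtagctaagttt

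In the canonical TFRC transcript the 4 elements began at bases 941, 1345, 1410 and 1457 of a 3' UTR of 2658 bases, so 3 of them lay close together. The elements of FTH1 and FTL had the same bases in both arms beside the loop and began at base 39 of 209 and base 33 of 199 of their 5' UTRs. The element of SLC40A1 began at base 104 of 326. Among all coding genes tested for expression, 0.926% of 12958 held such an element in a 3' UTR and 0.211% of 12810 in a 5' UTR. With 4 of 5 paired positions allowed, matches were found in 7 of the 10 genes, adding SLC11A2, ACO1 and IREB2 with 1 each in the 3' UTR, but then 5.96% of genes held one in a 3' UTR. No match was found by either limit in PFN2, described below among transcripts reported to hold an element. The search thus misses some reported elements. The added sequence of SLC11A2, base 34 of its 3' UTR, at chr12:50988269-50988297 on the minus strand, is shown because that gene is known for an element of irregular stem.
SLC11A2 3' UTR: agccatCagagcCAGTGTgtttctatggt

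Read pairs on genes summed to between 28464057 and 31688095 per library. Levels are given as CPM, which are counts scaled to a common normalized library size, and log2 fold changes set RIPK4.si against neg.si and come from edgeR's quasi-likelihood test over 16297 genes, called at a Benjamini-Hochberg adjusted p-value under 0.05. RIPK4 itself had 26.8% of its neg.si level in RIPK4.si (-1.90 on the log2 scale, standard error (SE) 0.203, edgeR adjusted p = 0.0102). With 1 library left out its log2 fold change lay between -2.06 and -1.74, and it was not called in 4 of 6 such fits, without neg.si replicate 2 or any of the RIPK4.si replicates (edgeR adjusted p-values 0.0622 to 0.106). All 8 melanocyte lineage markers reached 1 CPM in every library, with summed levels of 3573 to 4012 CPM in neg.si and 2635 to 2759 CPM in RIPK4.si. Of the markers of other cells with counts, 1 of 4 for keratinocytes (KRT10), 1 of 5 for fibroblasts (COL1A2, summed level of the list 633.9 to 818 CPM in neg.si and 512 to 1041 CPM in RIPK4.si), 1 of 3 for endothelium (KDR), 0 of 3 for leukocytes and 0 of 4 for erythroid cells did so. The part of these markers in the results was not tested. For each library, the deviation of each gene's log2 CPM from its mean over all libraries was set against the gene's GC content. The rank correlation over genes was 0.555, 0.081 and -0.547 for neg.si replicates 1, 2 and 3, and -0.079 to 0.165 for the RIPK4.si libraries. Of all genes tested, 125 (0.767%) were called with edgeR, 2.91% with DESeq2 and 3.28% with edgeR after removal of these GC trends.

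TFRC, which encodes the receptor through which transferrin enters the cell, was picked because its level was higher in the silenced libraries. It lies on chromosome 3 from 196027183 to 196082096 in the deposited table (GRCh38), on the minus strand. Its level was 219, 229.5 and 273 CPM in neg.si replicates 1, 2 and 3 and 597.5, 657 and 569 CPM in RIPK4.si replicates 1, 2 and 3. Every RIPK4.si library lay above every neg.si library, and the lowest of them was 2.09 times the highest neg.si library. The neg.si libraries averaged 240.4 ± 28.4 CPM and RIPK4.si 608 ± 44.7 CPM (SD over 3 libraries each), which is 2.53-fold or 1.34 on the log2 scale (SE 0.156). Between 6787 and 18978 read pairs stood behind each value. Over the 14 other ways of processing, the log2 fold change stayed between 1.29 and 1.44. No 50-base window of its canonical transcript was found in another annotated gene, but over all annotated exons it overlaps an lncRNA gene on the opposite strand (ENSG00000286168) by 191 bases, which the counting could not tell apart. These are levels in bulk RNA, in which a change in the share of cells and a change in RNA per cell cannot be told apart.

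**Figure D1:**
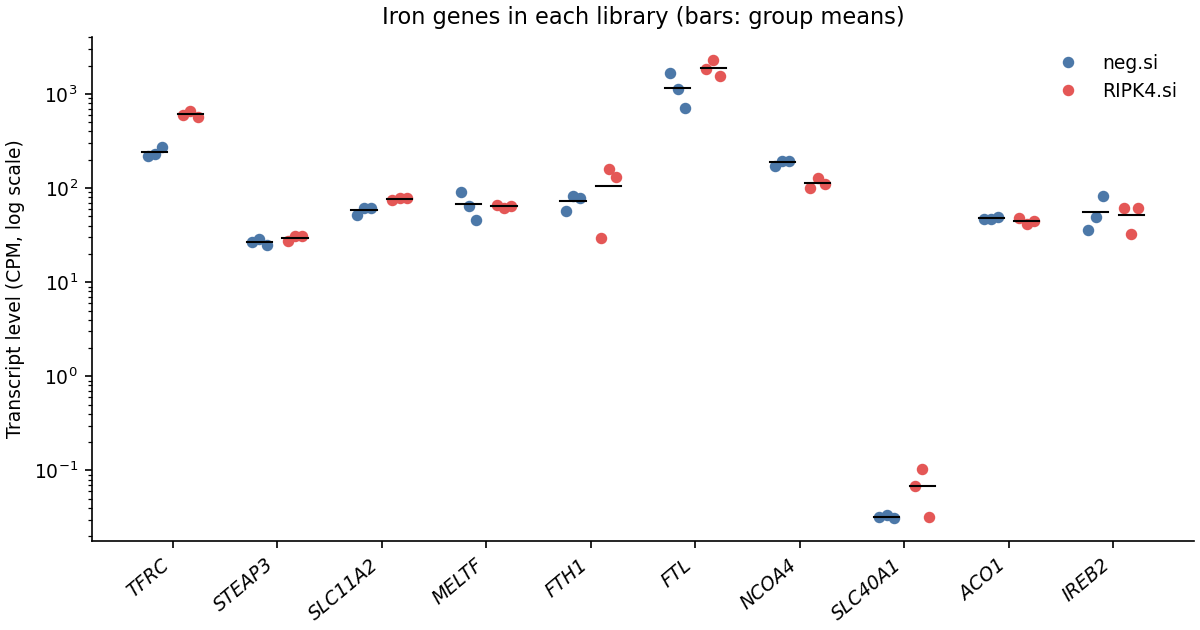
Transcript level of the 10 iron genes in each library, in CPM on a log axis, with neg.si in blue and RIPK4.si in red, points in replicate order and black bars at the group means. TFRC and SLC11A2 lay higher and NCOA4 lower in every RIPK4.si library, the points of the other genes overlapped, and SLC40A1 had 1 to 3 read pairs per library.

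Of the 9 genes chosen by function, 8 passed the filter on low counts and could be tested. None was called with edgeR, where 0.767% of all genes were called, 0.374% as higher in RIPK4.si and 0.393% as lower. NCOA4 was called as lower both with DESeq2 (1.44% of all genes lower, 1.47% higher) and after removal of the GC trends (1.7% lower, 1.58% higher). At an unadjusted p-value under 0.05 stood FTL and SLC11A2 as higher (4.85% of all genes) and NCOA4 as lower (6%), together 3 of 8 where all genes had 10.8%. In 2 of the 8 the values of neg.si and RIPK4.si were fully apart, SLC11A2 as higher (8.23% of all genes) and NCOA4 as lower (9.4%), together 17.6% of all genes. The median log2 fold change was 0.05 over the 8 genes and -0.02 over all genes tested.

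Among the other uptake genes, SLC11A2 encodes DMT1, which carries ferrous iron out of the endosome, and lies on chromosome 12 from 50979401 to 51028566. It had 52.4, 61.6 and 62.2 CPM in neg.si replicates 1, 2 and 3 and 74.6, 78.2 and 78.5 CPM in RIPK4.si replicates 1, 2 and 3. All RIPK4.si libraries were thus above all neg.si libraries, and the nearest pair differed by a factor of 1.20. The log2 fold change was 0.39 (SE 0.142, edgeR adjusted p = 0.329), which was not called under any of the 14 alternatives, whose adjusted p-values lay between 0.0847 and 0.842.

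STEAP3, the endosomal ferrireductase that turns ferric into ferrous iron before DMT1 moves it, lies on chromosome 2 from 119223831 to 119265652. It had 26.7, 28.5 and 24.99 CPM in neg.si and 27.6, 31.3 and 30.7 CPM in RIPK4.si replicates 1, 2 and 3. The groups overlapped, and the log2 fold change of 0.16 (SE 0.149, edgeR adjusted p = 0.822) was about as large as its error. STEAP3 shared 9.71% of the 100-base windows of its canonical transcript with STEAP3-AS1 on the opposite strand, which could not be separated because the counting ignored strand.

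MELTF encodes melanotransferrin, a membrane-anchored relative of transferrin first known as a melanoma antigen. It lies on the same chromosome as TFRC, from 196988621 to 197029817. Its levels were 91.4, 65.1 and 45.8 CPM in neg.si and 66.8, 62.1 and 65.0 CPM in RIPK4.si replicates 1, 2 and 3. The RIPK4.si libraries fell within the range of neg.si, where replicate 1 was 1.995 times replicate 3, and the log2 fold change was -0.06 (SE 0.23, edgeR adjusted p = 0.974). Leaving out neg.si replicate 1 turned its sign (0.24), and leaving out replicate 3 of that group gave -0.27.

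**Figure D2:**
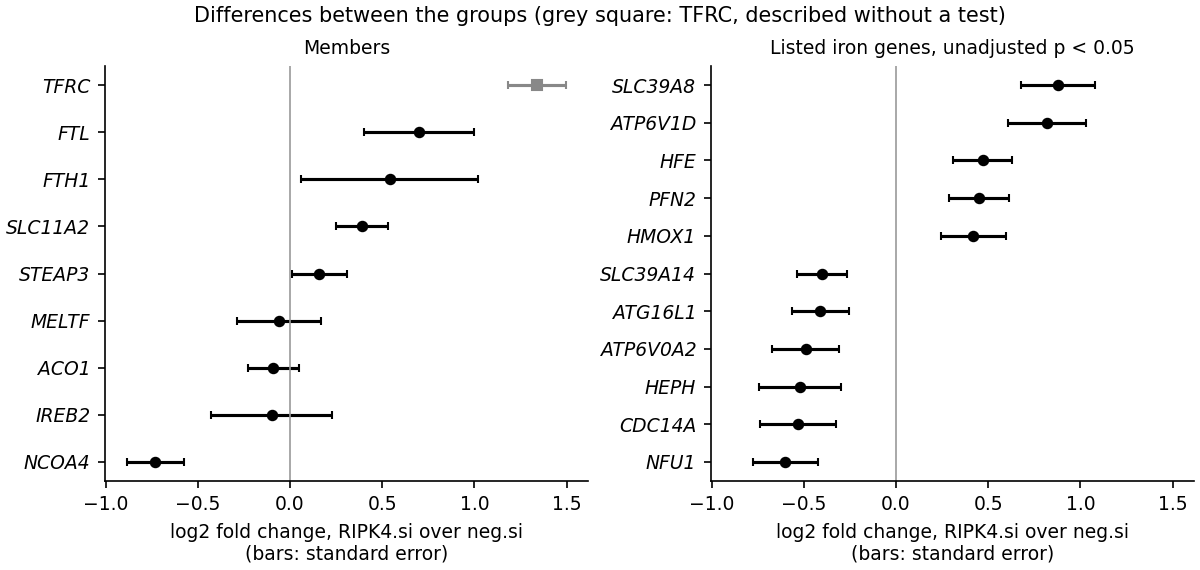
Log2 fold changes, RIPK4.si over neg.si, with standard errors, for the 9 iron genes that passed the count filter (left) and for the other listed iron genes with an unadjusted p-value under 0.05 (right). TFRC, picked for its higher level in RIPK4.si, is drawn at 1.34 as a grey square without a test. The remaining genes spanned -0.73 for NCOA4 to 0.88 for SLC39A8.

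NCOA4, the receptor that takes ferritin to the lysosome for breakdown, had a log2 fold change of the opposite sign to TFRC. It lies on chromosome 10 from 46005088 to 46030714. Its levels were 169.8, 196.0 and 196.4 CPM in neg.si replicates 1, 2 and 3 and 99.2, 127 and 111.5 CPM in RIPK4.si replicates 1, 2 and 3. All silenced libraries lay below all controls, and the nearest pair differed by a factor of 1.33. The neg.si libraries averaged 187 ± 15.3 CPM and RIPK4.si 112.7 ± 14.2 CPM (SD over 3 libraries each), the latter being 60.1% of the former. The log2 fold change was -0.73 (SE 0.155, edgeR adjusted p = 0.0761). DESeq2 gave an adjusted p-value of 0.00728, removal of the GC trends 0.0391, and that removal together with a block on the replicate number 0.0348, while the other alternatives reached up to 0.467.

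FTL, the ferritin light chain, on chromosome 19 from 48965309 to 48966879, was the most abundant of the 10 transcripts. Its levels were 1689, 1118 and 703 CPM in neg.si and 1855, 2318 and 1538 CPM in RIPK4.si replicates 1, 2 and 3. The groups overlapped, since neg.si replicate 1 lay above RIPK4.si replicate 3, and neg.si replicate 1 was 2.40 times neg.si replicate 3. The log2 fold change was 0.70 (SE 0.299, edgeR adjusted p = 0.432). Leaving out neg.si replicate 1 gave 1.08, leaving out replicate 3 of that group gave 0.44, and with the GC trends removed it was 0.74 (adjusted p = 0.145).

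FTH1, the heavy chain that carries the ferroxidase activity of ferritin, lies on chromosome 11 from 61959718 to 61967634 and had the widest range within a group. It had 1778, 2494 and 2516 read pairs in neg.si and 867, 4576 and 4054 in RIPK4.si replicates 1, 2 and 3. RIPK4.si replicates 2 and 3 were the highest of all libraries and RIPK4.si replicate 1 was the lowest, and in CPM the extremes of that group differed 5.36-fold. The log2 fold change of 0.54 (SE 0.478, edgeR adjusted p = 0.815) was hardly larger than its error, and it moved with single libraries. Leaving out RIPK4.si replicate 1 gave 0.99 (edgeR adjusted p = 0.192), leaving out replicate 2 of that group gave 0.14, and a block on the replicate number gave 0.25.

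The counts of FTH1 are uncertain, because its sequence has near-identical copies elsewhere and its exons overlap another gene. Of the 50-base windows of its canonical transcript, 80.5% were found exactly in other annotated genes, among them 15 FTH1 pseudogenes, and of the 100-base windows 67.4%. For FTL these shares were 18.5% and 3.37%, and for NCOA4 5.66% and 0%. The exons of FTH1 also overlap those of BEST1 on the opposite strand over 1267 bases in GENCODE 44. BEST1 had 18.4, 20.05 and 20.8 CPM in neg.si and 18.8, 13.3 and 15.2 CPM in RIPK4.si replicates 1, 2 and 3. The 7 FTH1 pseudogenes with counts held 109 read pairs in all, 0.669% of the 16285 on FTH1, and the 2 FTL pseudogenes held 16. The part of these copies and of the overlap in the FTH1 values was not tested. FTL had between 8.88 and 62.8 times the read pairs of FTH1 in a library, highest in RIPK4.si replicate 1.

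SLC40A1 encodes ferroportin, the only known iron exporter of animal cells, on chromosome 2 from 189560579 to 189583758. It had 1 read pair in each neg.si library and 2, 3 and 1 in RIPK4.si replicates 1, 2 and 3. These counts are at or under a floor of 3 read pairs per library, so no fold change is given and no change was detectable at this depth.

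Both regulators had overlapping groups. ACO1, a cytosolic aconitase that becomes IRP1 when it loses its iron-sulfur cluster, is encoded on chromosome 9 from 32384603 to 32454769. It had 47.4, 47.5 and 49.4 CPM in neg.si and 48.6, 42.1 and 44.7 CPM in RIPK4.si replicates 1, 2 and 3. RIPK4.si replicate 1 lay within the range of neg.si and the other two lay below it, and the log2 fold change was -0.09 (SE 0.14, edgeR adjusted p = 0.916). IREB2, whose protein IRP2 is degraded when iron is plentiful, lies on chromosome 15 from 78437431 to 78501453. It had 35.7, 49.5 and 82.0 CPM in neg.si and 62.1, 32.4 and 61.9 CPM in RIPK4.si replicates 1, 2 and 3. Its neg.si libraries spanned a factor of 2.30, more than the means of the groups differed. The log2 fold change was -0.10 (SE 0.33, edgeR adjusted p = 0.972). Leaving out neg.si replicate 3 turned its sign (0.29), as did leaving out RIPK4.si replicate 2 (0.17).

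**Figure D3:**
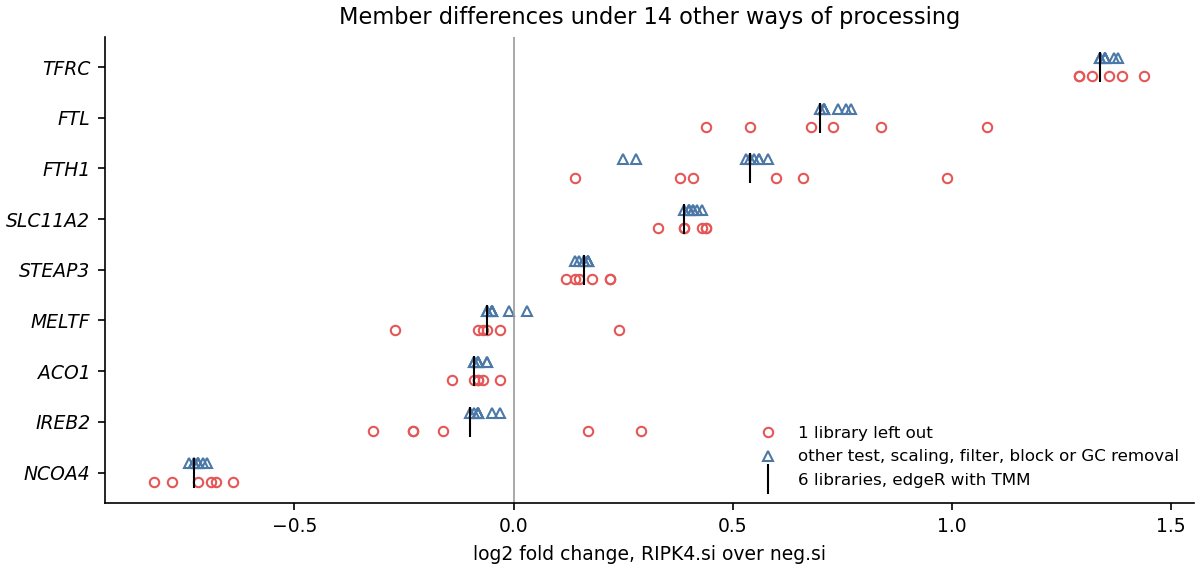
Log2 fold change, RIPK4.si over neg.si, of the 9 genes that passed the count filter over 6 libraries (black bars), with 1 library left out (red circles) and under other tests, scalings, filters, blocks or GC removal (blue triangles). TFRC stayed between 1.29 and 1.44 and NCOA4 between -0.82 and -0.64, MELTF and IREB2 crossed 0, and FTH1 ranged from 0.14 to 0.99.

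The spread of FTL, MELTF and IREB2 within neg.si was wider than that of most genes with a mean of at least 20 CPM. The range of log2 CPM over the 3 neg.si libraries was 1.26 for FTL, 1.20 for IREB2 and 1.0 for MELTF, where the median over those 7170 genes was 0.46. Of them, 168 had a wider range than FTL, 243 than IREB2 and 667 than MELTF. Within neg.si, IREB2, with the lowest GC content of the tested genes (38.2%), was lowest in replicate 1 and highest in replicate 3, and FTL (56.0% GC) had the reverse order. With the GC trends removed, the difference between neg.si replicates 1 and 3 shrank from 1.26 to 0.87 for FTL and from -1.20 to -0.65 for IREB2 on the log2 scale. It also shrank for TFRC, from -0.32 to 0.12, for SLC11A2, from -0.25 to 0.07, and for NCOA4, from -0.21 to 0.11, all with 41.0% to 43.1% GC and lowest in replicate 1 of neg.si. For the other 4 genes it did not shrink. MELTF (45.7% GC) had 1.0 before and 1.18 after. STEAP3, with the highest GC content (56.8%), had 0.10 before and -0.35 after. FTH1 (50% GC) went from -0.46 to -0.51, and ACO1 (45.6% GC) from -0.06 to 0.13. Over the 9 genes that passed the count filter, which share these 6 libraries, Pearson's r between GC content and that difference was 0.62 before and 0.19 after. The removal fits this same GC content, so a fall in r is built into it. TFRC, NCOA4 and SLC11A2 had ranges of 0.21 to 0.32 within neg.si and 0.07 to 0.36 within RIPK4.si.

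**Figure D4:**
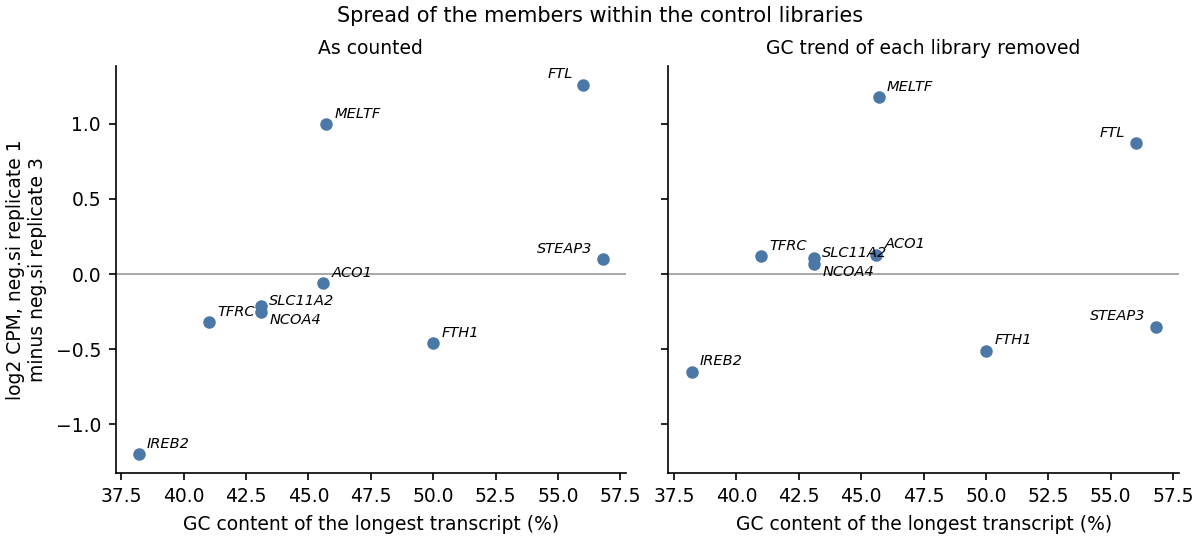
Difference in log2 CPM between neg.si replicates 1 and 3 against the GC content of the longest transcript, for the 9 genes that passed the count filter as counted (left) and with the GC trend of each library removed (right). FTL at 1.26 and IREB2 at -1.20 mark the ends of the left panel, and MELTF stayed at 1.0 or above in both.

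Compared per length, as CPM per kilobase of annotated exon, FTL stood far above the other genes with 1343 ± 568.5 in neg.si (SD, n = 3), followed by NCOA4 at 47.0 ± 3.83, FTH1 at 36.5 ± 6.90 and TFRC at 13.8 ± 1.64. The libraries of these 4 genes did not overlap with those of the next in the order. ACO1, SLC11A2, STEAP3, IREB2 and MELTF had means of 6.36, 5.94, 5.86, 5.16 and 4.56 CPM per kilobase in neg.si, and each overlapped its neighbour. In RIPK4.si, TFRC reached 35.0 ± 2.57 CPM per kilobase and NCOA4 28.3 ± 3.55, so that TFRC took the third place and NCOA4 the fourth. FTH1 held the second place there with a mean of 52.9, and its libraries overlapped with those of TFRC. The order depends on the length used, because all annotated exons of TFRC cover 17.376 kilobases and its canonical transcript 5.012. The place of FTH1 also rests on uncertain counts, since 80.5% of its 50-base windows were found in other genes and its exons overlap BEST1. The GENCODE 44 gene models of TFRC, MELTF, NCOA4 and SLC40A1 differ in span from the deposited ones, so their lengths may include exons that were not counted, or miss some that were. Per kilobase of canonical transcript, TFRC had 47.97 in neg.si and 121 in RIPK4.si, under FTH1 with 60.9 and NCOA4 with 54.2 in neg.si and above FTH1 with 88.2 and NCOA4 with 32.6 in RIPK4.si. By this length the libraries of the 3 genes overlapped in neg.si, but within each neg.si library TFRC lay below both FTH1 and NCOA4. FTH1 lay below NCOA4 in neg.si replicate 1 and above it in the others, so the order of FTH1 and NCOA4 there is not settled. In RIPK4.si, replicate 2 of FTH1 lay above all libraries of TFRC and replicates 1 and 3 below them, while NCOA4 lay below TFRC in every library.

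**Figure D5:**
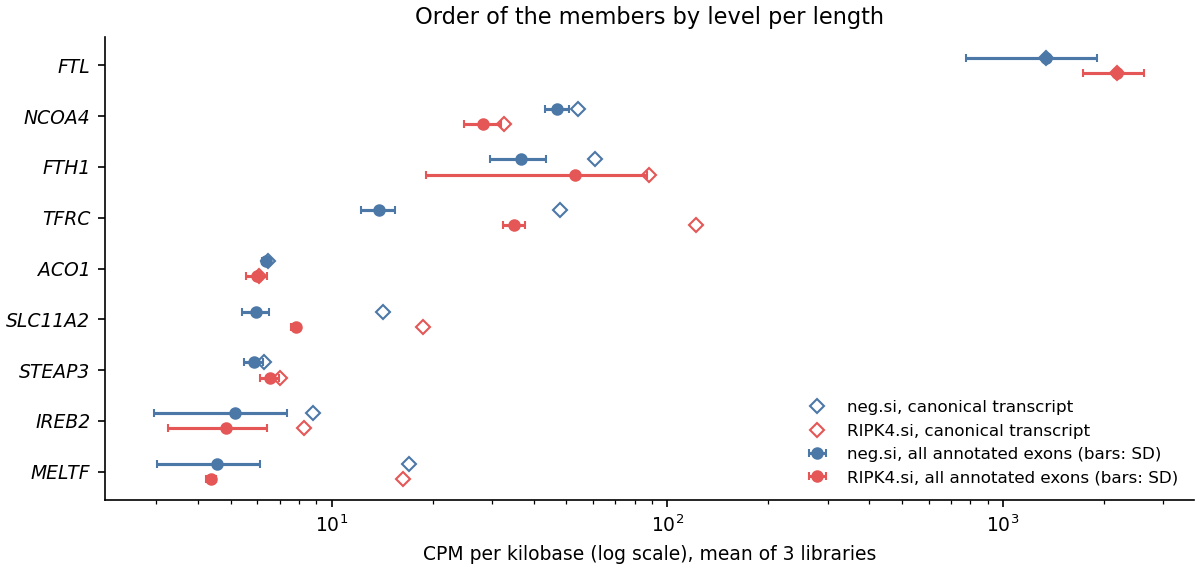
Mean level of 9 iron genes in CPM per kilobase on a log axis, in neg.si (blue) and RIPK4.si (red), over all annotated exons (filled circles with SD, n = 3) or the canonical transcript (open diamonds). FTL led at 1343 and 2185 by either length, and over all annotated exons TFRC lay below NCOA4 in neg.si and above it in RIPK4.si.

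The other genes of the pathway were taken from 9 lists of 110 genes, of which 98 could be tested. None was called with edgeR (0.767% of all genes). DESeq2 called 2, SLC39A8 and ATP6V1D (2.91% of all genes), and 1, SLC39A8, was called with the GC trends removed (3.28% of all genes), each as higher. An unadjusted p-value under 0.05 was found for 11 genes, 5 higher and 6 lower in RIPK4.si, or 11.2% where all genes tested had 10.8%. The median log2 fold change of the 98 genes was -0.03.

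Of the transport genes outside the transferrin route, none was called with edgeR (0.767% of all genes), and those named here had log2 fold changes of either sign. SLC39A8, which encodes the metal importer ZIP8, had 3.65, 3.93 and 3.46 CPM in neg.si and 6.07, 7.96 and 6.24 CPM in RIPK4.si replicates 1, 2 and 3. All its RIPK4.si libraries were higher, with a log2 fold change of 0.88 (SE 0.2, edgeR adjusted p = 0.0978, 0.0171 with DESeq2 and 0.0437 with the GC trends removed). SLC39A14, which encodes the related importer ZIP14, went the other way, with 95.3 to 105.8 CPM in neg.si and 71.1 to 79.0 CPM in RIPK4.si (log2 fold change -0.40, edgeR adjusted p = 0.301). HEPH, which encodes the ferroxidase hephaestin, had a log2 fold change of -0.52 at 3.40 CPM in neg.si (edgeR adjusted p = 0.435). In the list 11 genes were tested, and the median was -0.24.

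In the transferrin cycle, 10 genes were tested with a median log2 fold change of -0.01. HFE, whose protein binds the transferrin receptor, had 19.2, 18.1 and 16.0 CPM in neg.si and 23.0, 27.4 and 23.8 CPM in RIPK4.si replicates 1, 2 and 3. The groups of HFE did not overlap (log2 fold change 0.47, edgeR adjusted p = 0.287). Of the endosomal proton pump, whose acid lets transferrin give up its iron, 15 subunit genes were tested with a median of -0.07. ATP6V1D averaged 66.0 ± 11.2 CPM in neg.si and 116.3 ± 29.5 CPM in RIPK4.si (SD over 3 libraries each), with all RIPK4.si libraries higher (log2 fold change 0.82, edgeR adjusted p = 0.141 and 0.0237 with DESeq2). ATP6V0A2 differed by -0.49 on the log2 scale (edgeR adjusted p = 0.346).

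Among genes that use iron, 19 of mitochondrial iron-sulfur assembly were tested with a median of -0.03. NFU1, a late carrier of iron-sulfur clusters in mitochondria, had 60.4, 56.9 and 48.1 CPM in neg.si and 32.7, 43.8 and 32.5 CPM in RIPK4.si replicates 1, 2 and 3. Its groups did not overlap, with a log2 fold change of -0.60 (SE 0.176, edgeR adjusted p = 0.198). The 10 genes of cytosolic iron-sulfur assembly and the 11 of heme synthesis had medians of -0.06 and 0.10 and lay between -0.21 and 0.36. None of them had an unadjusted p-value under 0.05 (10.8% of all genes), and neg.si and RIPK4.si were fully apart in 20% and 18.2% of them (17.6% of all genes). In heme transport and breakdown, HMOX1, the inducible heme oxygenase that frees iron from heme, averaged 9.86 ± 1.25 CPM in neg.si and 13.2 ± 1.02 CPM in RIPK4.si (SD over 3 libraries each, log2 fold change 0.42, edgeR adjusted p = 0.412), in a list of 11 with a median of 0.06.

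Other transcripts reported to hold an iron-responsive element gave 6 tested genes with a median of -0.17. PFN2 was higher, with a log2 fold change of 0.45 (edgeR adjusted p = 0.328), and CDC14A was lower, with -0.53 (edgeR adjusted p = 0.36), and neither was called under any alternative. In the list of ferritin turnover and control of the regulatory proteins, 5 genes were tested with a median of -0.17 and none was called with edgeR (0.767% of all genes). ATG16L1, an autophagy gene, was the 1 with an unadjusted p-value under 0.05, where all genes had 10.8% (log2 fold change -0.41, edgeR adjusted p = 0.339).

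Over the 6 libraries, the genes whose log2 CPM was most like that of TFRC by Pearson's r were LRRC1, LYPD6, MEFV, PRR5L and TMEM117, with r between 0.994 and 0.998. TFRC was chosen for its difference between the groups, so this measure favours genes that also differ between them. LRRC1, for example, had a mean of 13.3 CPM in neg.si and 26.4 CPM in RIPK4.si. Among the 8 other genes of the 10 that passed the count filter, SLC11A2 was the closest with r = 0.95, at place 167 of 16296, and NCOA4 the farthest with r = -0.90, at place 428 from the lower end.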

How the data were processed

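RNA-seq of 3 neg.si and 3 RIPK4.si libraries was analysed from the deposited table. The authors made poly(A) libraries for paired-end sequencing. Trimming used Cutadapt and alignment TopHat on GRCh38.p13, and HTSeq assigned fragments to genes without regard to strand. Its settings for fragments of several genes or places are not given in the sources used here. The deposited counts are integers and cover 24526 genes, each with 6 or more in all. Signal columns, also deposited, hold counts divided by DESeq2 size factors. The deposited ratio (fold), log2 fold change with standard error, p-value and adjusted p-value columns hold the authors' own DESeq2 comparison and were not used.

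Counts were tested with edgeR 4.0.16 in R 4.3.3 (filterByExpr on low counts, TMM, quasi-likelihood test of group, Benjamini-Hochberg adjustment over 16297 genes). The alternatives were DESeq2 1.42.0, other scalings and filters, a replicate block, lowess correction (span 0.3) of the GC trend within a library and each library left out. The exons, UTRs, GC content and transcript sequences came from GENCODE 44 on GRCh38, in which 24416 genes were found; the spans of 4 members (TFRC, MELTF, NCOA4 and SLC40A1) differed from the deposited ones. The canonical transcript length was added after seeing the data. Genes named beside the 10 were, per list, those called and up to 2 per direction with the smallest unadjusted p-values under 0.05, and the 5 most like TFRC. Members and lists were chosen with earlier results of these data known. The study describes the replicates as biological; p-values measure the spread between these libraries. Both tests were tested on simulated data with a common dispersion. Of 100 genes set to differ by 1 on the log2 scale, edgeR called 55% and DESeq2 60%. Of 100 set to differ by 2, they called 100% and 98%. Smaller differences were not simulated.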

Additional observations from a re-analysis of the deposited data

How the results depend on the processing

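The count of genes called was 437 with DESeq2, 532 with the GC trends removed, 437 with that removal and a replicate block, and 0 to 295 with 1 library left out. It was 70, 0 and 295 without neg.si replicates 1, 2 and 3 and 0, 4 and 0 without RIPK4.si replicates 1, 2 and 3, and where edgeR called 0 there were 1153, 1426 and 1086 genes at an unadjusted p-value under 0.05 (DESeq2 was not run on these). Same-numbered libraries deviated together in 2 of 3 pairs (r = -0.242, 0.251 and 0.346), so the numbers were not taken to pair them, and the replicate block alone gave 131 calls and changed no call of a member. RIPK4.si replicates 1 and 2 correlated best with neg.si replicates 3 and 1. RIPK4 stayed between -2.06 and -1.74 with 1 library left out. Of the tested members chosen by function, 1 was called with DESeq2, 1 with the GC trends removed and 1 with that removal and the block, in each case NCOA4. Of the other iron genes, 2, 1 and 1 were called under these settings. The sign turned for MELTF with the GC removal and block (0.03) and, with 1 library left out, for MELTF (-0.27 to 0.24) and IREB2 (-0.32 to 0.29). In the order of levels, 3 of 10 genes kept their place with the longest transcript and 4 of 10 with the canonical transcript. The element search found 7 members with 4 of 5 paired positions. Depth limits SLC40A1, and the part of shared sequence in FTH1 was not tested.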

Other observations

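The neighbourhood of FTH1 on chromosome 11 was looked at after the values had been seen. Among the 7170 tested genes with a mean of at least 20 CPM, only TMEM258 had a wider range of log2 CPM over the RIPK4.si libraries (2.93) than FTH1 (2.42). TMEM258, which encodes a subunit of the oligosaccharyltransferase complex, ends 166.9 kilobases before FTH1, and both genes were lowest in RIPK4.si replicate 1. TMEM258 had 69.4, 59.3 and 50.2 CPM in neg.si and 11.4, 86.9 and 62.0 CPM in RIPK4.si replicates 1, 2 and 3. FEN1, FADS1, FADS2 and FADS3 lie between them and had narrower ranges over RIPK4.si, 0.08 for FEN1, 0.27 for FADS1, 0.56 for FADS2 and 0.17 for FADS3.

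Transcripts other than TFRC with a fully paired iron-responsive element in a 3' UTR were 119 of the genes tested. Of these, 1 was called with edgeR (0.84%, against 0.767% of all genes), LRP8, which encodes a lipoprotein receptor, with a log2 fold change of 0.88. It was named after its value was seen. An unadjusted p-value under 0.05 was found for 9 that were higher and 16 that were lower in RIPK4.si, together 21% where all genes had 10.8%. With 4 of 5 paired positions allowed, 94 of 771 such genes (12.2%) passed that limit. For the 27 genes with the fully paired element in a 5' UTR, FTH1 and FTL included, 4 were higher and 2 lower by that limit (22.2%), and none was called with edgeR (0.767% of all genes). With 4 of 5 paired positions allowed, 11 of 218 were higher and 15 lower (11.9%). A match of these letters is a description, not a binding site.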
